A study of Mus musculus with 6 samples.

Results

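Telomeres are the repeat-capped ends of chromosomes, and shelterin is the protein complex that sits on them and keeps the cell from treating them as broken DNA. Telomerase, a reverse transcriptase with its own RNA template, adds the repeats back, and helicases and the CST complex let the replication machinery pass through and finish the ends. In humans, inherited defects in several of these genes, *RTEL1*, *PARN*, *DKC1* and *TINF2* among them, are known causes of pulmonary fibrosis, and in mice the loss of *Terf1* from AT2 cells, the surfactant-making stem cells of the alveolus, is known to lead to fibrosis. The 10 telomere maintenance genes described here were taken by symbol from the 24224 genes of the deposited count table. They are 6 shelterin genes (*Terf1*, *Terf2*, *Terf2ip*, *Tinf2*, *Pot1a* and *Acd*), the telomerase maturation genes *Dkc1* and *Parn*, and the telomere replication genes *Rtel1* and *Ctc1*. All 10 were found, and all 10 passed the filter on low counts that kept 14899 genes.

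RNA came from AT2 cells of wild-type C57BL/6J mice that had aged naturally to 3 m (months) or 24 m. The cells were sorted from digested lungs as CD45- CD31- CD326+ MHCII+ cells, and each of the 3 biological replicates per age was a pool of cells from several mice, so that differences between single mice cannot be seen. In such a sorted population fewer expressing cells and less RNA per cell cannot be told apart.

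The 6 libraries held 28827930 to 32394985 counts. AT2 markers summed to 138900 to 228400 CPM, where CPM is the read count scaled to a common library size after TMM normalization, and *Epcam*, which encodes the CD326 of the sort, was at 124 to 198 CPM. *Ptprc*, which encodes the excluded CD45, was at 0 to 0.190 CPM at 3 m and at 2.38 to 9.59 CPM at 24 m. The 9 leukocyte markers, 5 of them at 0 in every 3 m library, summed to 0.585 to 3.86 CPM at 3 m and 9.25 to 87.7 CPM at 24 m, highest in replicate 2 at 24 m. The marker lists were read beside all tested genes, of which 9.74% were higher at 24 m without overlap and 5.41% lower. Of 10 AT2 markers 1 was higher in this way and 4 lower, and of 9 markers of dividing cells 3 higher and 1 lower. No marker of the following lists was lower. Higher were 5 of 9 leukocyte markers and 2 of 3 plasma cell markers (summing to 0.570 to 1.52 CPM at 3 m and 15.2 to 99.0 CPM at 24 m). In the remaining lists 3 of 4 airway, 2 of 3 endothelial, 1 of 5 AT1 and 0 of 4 stromal markers were higher. The airway sums nonetheless overlapped, at 225 to 714 CPM at 3 m and 469 to 1025 CPM at 24 m. So did the endothelial sums, at 0.253 to 2.71 CPM at 3 m and 1.64 to 11.4 CPM at 24 m, with 1 marker at 0 in every 3 m library. Of the 5 sort markers 2 were higher, *Ptprc* and *H2-Ab1*. *H2-Ab1*, an MHC class II gene, was at 225 to 525 CPM at 3 m and 724 to 999.7 CPM at 24 m. The part of other cell types in the results below was not tested. Replicate 2 at 3 m stood apart from the other libraries. It had 13430 genes with a count, where the others had 16356 to 21836. Its AT2 marker sum of 138900 CPM was the lowest, with *Sftpc* at 51360 CPM against 83310 to 139100 CPM in the others. In it 22.2% of the tested genes lay below 0.5 times the lowest other library and 9.04% above 2 times the highest, where each of the other libraries had at most 1.80% and 2.51% of such genes. Fold changes are therefore given with and without it.

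Promoter windows are shown for *Rtel1* and *Ctc1*, which read low in that library, and for *Tinf2*, which did not. *Acd* read lower there than *Ctc1* relative to the other libraries, and is not shown because its RefSeq start is in doubt. A part of promoter sequence in these values was not tested. The windows are the 250 bases before the start annotated by RefSeq (GRCm38.p6, 9 of the 10 members matched, *Terf1* not), written in the direction of the gene. Capitals mark matches, on either strand, to the GC box GGGCGG, the CCAAT box ATTGG, the ETS core CCGGAAG, the E-box CACGTG or the telomere repeat TTAGGG.
Rtel1, chr2:181319474-181319723, plus strand: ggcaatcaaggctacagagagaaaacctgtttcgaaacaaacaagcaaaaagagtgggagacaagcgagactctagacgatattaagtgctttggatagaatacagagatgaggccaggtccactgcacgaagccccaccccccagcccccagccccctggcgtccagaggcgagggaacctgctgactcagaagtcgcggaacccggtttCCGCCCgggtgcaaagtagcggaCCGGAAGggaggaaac
Ctc1, chr11:69015661-69015910, plus strand: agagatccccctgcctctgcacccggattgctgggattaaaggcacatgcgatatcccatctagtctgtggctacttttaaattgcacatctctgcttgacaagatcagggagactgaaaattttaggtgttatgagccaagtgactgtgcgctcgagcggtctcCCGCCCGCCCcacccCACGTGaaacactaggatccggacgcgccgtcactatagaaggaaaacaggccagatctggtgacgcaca
Tinf2, chr14:55681818-55682067, minus strand: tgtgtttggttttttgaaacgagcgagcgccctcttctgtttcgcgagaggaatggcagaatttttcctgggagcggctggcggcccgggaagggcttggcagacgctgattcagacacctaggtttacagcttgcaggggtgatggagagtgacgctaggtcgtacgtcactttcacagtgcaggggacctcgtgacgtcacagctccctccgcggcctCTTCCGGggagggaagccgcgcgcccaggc

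The GC box was in 4 of the 9 windows (*Ctc1*, with a pair of overlapping copies, *Parn*, *Pot1a* and *Rtel1*) and in 32.9% of the windows of 27025 genes. The ETS core was in those of *Rtel1* and *Tinf2* and in 7.05% of all. The E-box was in that of *Ctc1* and in 6.05% of all, and the CCAAT box was in those of *Acd* and *Terf2* and in 34.5% of all, though the RefSeq start used for *Acd* lies upstream of its GENCODE starts. The telomere repeat itself was in the window of *Parn*, and in 9.25% of all. No motif was shared by all members, and these letter matches do not show that a factor binds.

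To ask whether telomere maintenance genes differ between young and aged AT2 cells, each gene was tested for a difference at 24 m relative to 3 m. None of the 10 genes was called in either direction, a call needing an adjusted p under 0.05 together with more than a 2-fold difference (edgeR's quasi-likelihood test with Benjamini-Hochberg adjustment over 14899 genes, smallest adjusted p = 0.852). The same rule called 0% of all tested genes higher and 0% lower. At an unadjusted p under 0.05 there were 0 of the 10, against 5.86% of all tested genes. DESeq2, which called 1.63% of its genes higher and 0.16% lower, called 0 of the 10, and limma-voom, with 0% called in either direction, also 0. At an unadjusted p under 0.05 DESeq2 had 1783 genes, 10.2% of the 17509 that it gave an adjusted p, out of 24084 with a p. For limma-voom the share was 6.53% of 14899 genes, and again neither tool had any of the 10. The fitted differences of the 10 ran from -0.28 to 0.81 on the log2 scale. Their median was 0.01 and their median size 0.13, beside 0.05 and 0.40 over all tested genes, which were not matched to them by expression level. Of the 10, 5 were fitted above 0 and 5 below, where 53.8% of all were above. Without replicate 2 at 3 m the median was -0.06 and the median size 0.20, beside 0.03 and 0.30 over all genes, with 3 genes above 0 and 7 below. In none of the 10 did the CPM of the ages part without overlap, where 15.1% of all tested genes did so, 9.74% with 24 m above and 5.41% with 24 m below.

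**Figure D1:**
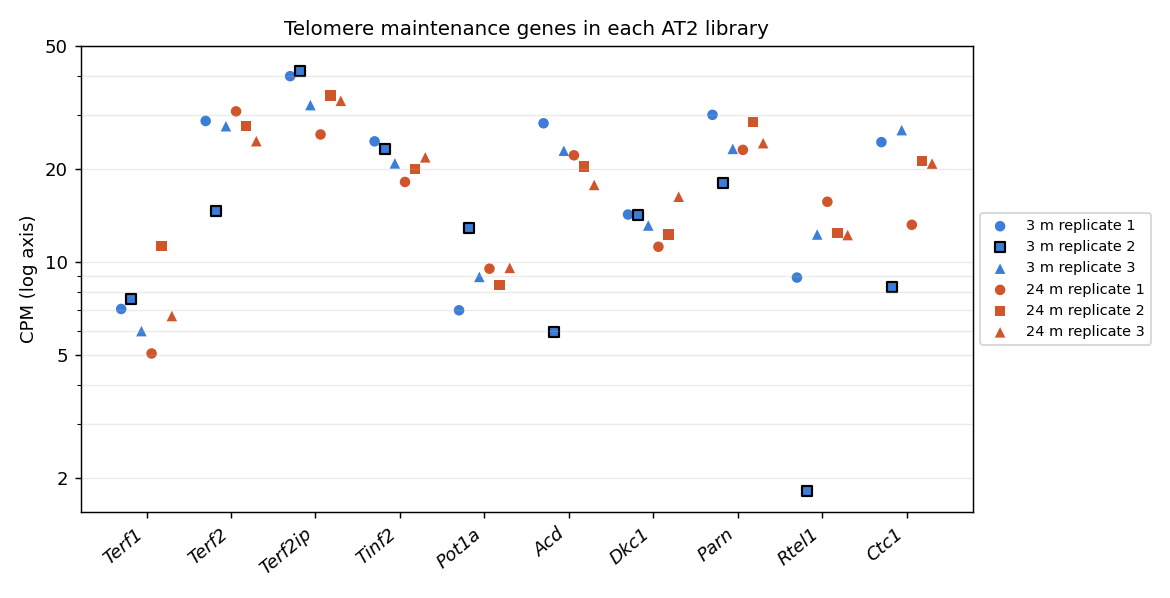
CPM of the 10 telomere maintenance genes on a log axis, 1 point per library, with 3 m in blue, 24 m in orange and replicate 2 at 3 m outlined in black. The ages overlap in every gene, and the outlined point lies lowest for *Terf2*, *Acd*, *Parn*, *Rtel1* and *Ctc1*.

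*Terf1* and *Terf2* encode TRF1 and TRF2, which bind the double-stranded repeats of the telomere. *Terf1* was at 7.05, 7.62 and 5.98 CPM in replicates 1, 2 and 3 at 3 m and at 5.06, 11.3 and 6.69 CPM at 24 m. Both its lowest and its highest value came from 24 m libraries, and the highest was in the library with the most leukocyte marker RNA, whose part in it was not tested. *Terf2* was at 28.6, 14.6 and 27.5 CPM at 3 m and at 30.7, 27.6 and 24.6 CPM at 24 m. Its 5 libraries other than replicate 2 at 3 m lay within 1.25-fold of each other, the narrowest range of the 10 genes. The fitted log2 fold change of *Terf2* was 0.23 (SE 0.32) and was -0.02 (SE 0.20) without that library. That of *Terf1* was 0.16 (SE 0.45), and 0.24 without it.

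*Terf2ip* encodes RAP1, the partner of TRF2, and *Tinf2* encodes TIN2, the bridge between TRF1, TRF2 and the POT1 arm of shelterin. *Terf2ip* was at 39.9, 41.4 and 32.2 CPM at 3 m and at 25.9, 34.6 and 33.2 CPM at 24 m. *Tinf2* was at 24.6, 23.1 and 20.9 CPM at 3 m and at 18.2, 20.01 and 21.8 CPM at 24 m. Both had a lower mean at 24 m, 31.2 ± 4.71 against 37.8 ± 4.96 CPM for *Terf2ip* and 19.99 ± 1.82 against 22.9 ± 1.88 CPM for *Tinf2* (SD, n = 3 libraries per age), and in both the ages overlapped. Neither passed the test (edgeR's adjusted p = 0.858 and 0.904), and replicate 2 at 3 m hardly moved them, with log2 fold changes of -0.28 and -0.19 in all libraries and -0.20 and -0.18 without it. Of the exonic bases of *Tinf2*, 31.2% overlap those of *Gmpr2* on the opposite strand, and the strand setting of the counts is not given in the sources used here. *Gmpr2* itself was at 0.784 to 4.02 CPM.

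*Acd* encodes TPP1, which draws telomerase to the chromosome end and holds POT1, and *Pot1a* encodes a protein that covers the single-stranded overhang. *Acd* was at 28.1, 5.95 and 22.9 CPM at 3 m and at 22.1, 20.3 and 17.8 CPM at 24 m. Replicate 2 at 3 m was far below the rest, at 167 counts (95% Poisson interval 143 to 194, counting error only) where the others had 597 to 817. Over all libraries its log2 fold change was 0.08 (SE 0.51). Without that library it was -0.34 (SE 0.22) (edgeR's adjusted p = 0.669), and every 24 m value lay below the 3 m values left. *Pot1a* went the other way in the same library, at 6.99, 12.9 and 8.96 CPM at 3 m against 9.52, 8.45 and 9.58 CPM at 24 m. Its 3 m values spanned all those at 24 m, with a log2 fold change of -0.07 in all libraries and 0.21 without replicate 2 at 3 m. *Acd* shares 33.3% of its exonic bases with *Carmil2* on the opposite strand, which was at 0 to 1.68 CPM.

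*Dkc1* encodes dyskerin, the pseudouridine synthase that stabilizes telomerase RNA and other H/ACA RNAs, and *Parn* encodes the ribonuclease that trims adenosine tails, those of human telomerase RNA included. *Dkc1* was at 14.2, 14.2 and 13.1 CPM at 3 m and at 11.2, 12.3 and 16.3 CPM at 24 m, so that the 3 m values lay inside the range of the 24 m values. *Parn* was at 29.9, 18.0 and 23.2 CPM at 3 m and at 23.1, 28.4 and 24.2 CPM at 24 m. Their log2 fold changes were -0.06 (SE 0.31) and 0.09 (SE 0.29), and -0.04 and -0.07 without replicate 2 at 3 m. The 95% intervals of the fold were 0.589 to 1.55 for *Dkc1* and 0.675 to 1.67 for *Parn*, so that a 2-fold difference in either direction lay outside both.

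*Rtel1*, a helicase that takes apart telomere loops and G-quadruplexes, had the largest fitted difference of the 10. It was at 8.91, 1.82 and 12.3 CPM at 3 m and at 15.7, 12.4 and 12.2 CPM at 24 m. Replicate 2 at 3 m was by far the lowest library, with 51 counts (95% Poisson interval 38.0 to 67.1) against 259 to 464 in the others, and replicate 3 at 3 m lay just above the lowest 24 m value. The means were 7.67 ± 5.34 CPM in young and 13.4 ± 1.93 CPM in aged cells (SD, n = 3 each). This gave a log2 fold change of 0.81 (SE 0.61), a 1.75-fold ratio with a 95% interval of 0.664 to 4.62 (edgeR's adjusted p = 0.852). Without replicate 2 at 3 m the log2 fold change was 0.34 (SE 0.28) and the fold 1.27, with an interval of 0.828 to 1.95 (edgeR's adjusted p = 0.783).

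*Ctc1* encodes the large subunit of CST, which brings DNA polymerase alpha-primase to the end to fill in the complementary strand. It was at 24.4, 8.30 and 26.7 CPM at 3 m and at 13.2, 21.2 and 20.8 CPM at 24 m. The lowest value was again replicate 2 at 3 m, and the 3 m libraries held both the lowest and the highest values. The log2 fold change was -0.11 (SE 0.45) in all libraries. Without replicate 2 at 3 m it was -0.47 (SE 0.25), a fold of 0.722 with a 95% interval of 0.492 to 1.06 (edgeR's adjusted p = 0.572), and every 24 m library was below both 3 m libraries left. *Acd* and *Ctc1* were the 2 of the 10 genes whose ages then parted, both lower at 24 m, where 11.8% of all tested genes parted in that direction and 26.2% in either. Without replicate 2 at 3 m, edgeR called 0 of the 10 genes, with 0 at an unadjusted p under 0.05 beside 10.4% of all, and 0.506% of 16216 tested genes higher and 0.0185% lower.

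**Figure D2:**
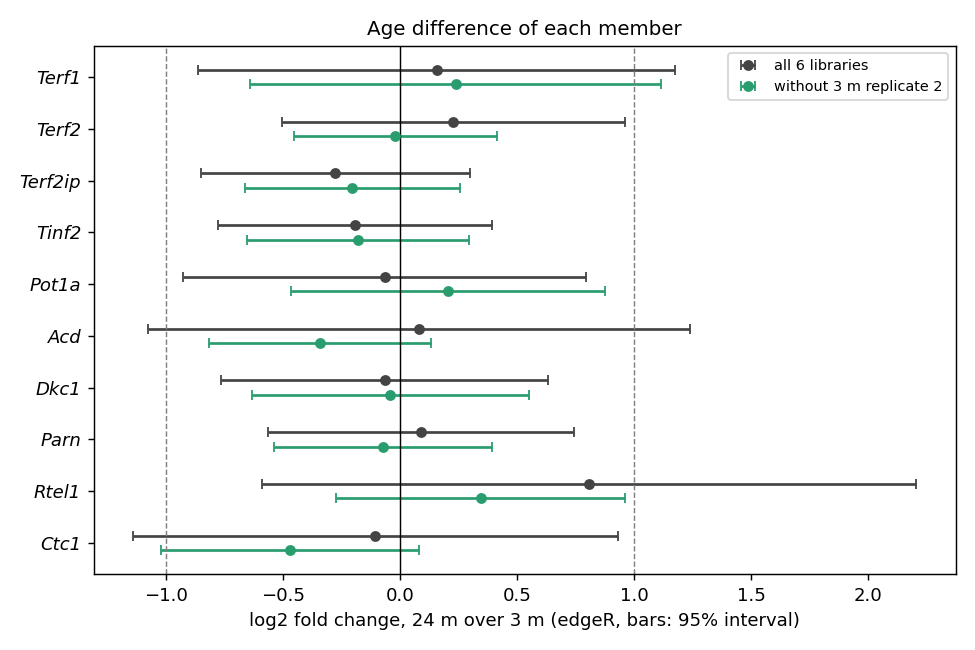
Log2 fold change of each gene, 24 m over 3 m, from edgeR, with 95% intervals, in all 6 libraries (grey) and without replicate 2 at 3 m (green). Every interval crosses 0, and that of *Rtel1*, the widest in all libraries, runs from -0.59 to 2.21 there and from -0.27 to 0.96 without that library, where that of *Terf1* is the widest, from -0.64 to 1.12. Dashed lines mark a log2 fold change of 1 in size.

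The direction in which replicate 2 at 3 m departed from the rest split the 10 genes. It was the lowest of the 6 libraries for 5 of them (*Terf2*, *Acd*, *Parn*, *Rtel1* and *Ctc1*), the highest for 2 (*Terf2ip* and *Pot1a*) and in between for 3 (*Terf1*, *Tinf2* and *Dkc1*), beside 40.8% of all tested genes at the lowest and 30.8% at the highest. Taken as a log2 gap to the median of the other 5 libraries (on CPM + 0.1), it ran from -2.69 for *Rtel1*, -1.88 for *Acd* and -1.34 for *Ctc1* to 0.32 for *Terf2ip* and 0.52 for *Pot1a*. *Rtel1* and *Acd* were the 2 that lay below 0.5 times the lowest other library, as 22.2% of all tested genes did, and none lay above 2 times the highest, as 9.04% of all did. These 2 of 10 are close to the share over all genes.

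GC content of the transcript moved with this gap. Over 14852 tested genes with a GENCODE vM21 transcript, the median log2 gap was 0.87 in the 20% of genes with the least GC, from 22.1% to 44.1%, and -1.27 in the 20% with the most, from 55.7% to 75.5%. The members ran from 41.4% to 57.0%. *Acd* at 57.0% GC, *Ctc1* at 54.5%, *Rtel1* at 52.5% and *Terf2* at 52.1% were low in the library. *Terf1* at 41.4%, *Pot1a* at 43.5% and *Dkc1* at 43.6% were level or high in it. *Terf2ip* at 47.7% and *Parn* at 48.3% lay between these in GC content. The library was the highest for *Terf2ip*, with a gap of 0.32, and the lowest for *Parn*, with a gap of -0.43. Single members lay off the median of their class. *Terf1* and *Dkc1*, with gaps of 0.18 and 0.12, were below the 0.87 of theirs, *Tinf2*, at 51.6% GC and a gap of 0.15, was above the -0.27 of its class, and *Rtel1* lay well under the median of -0.81 for genes in its own class of GC content, which ran from 51.8% to 55.7%. Transcript length moved with the gap too, from a median of -1.19 in the 20% with the shortest transcripts to 0.29 in that with the longest. The members ran from 2268 bases (*Terf1*) to 4401 (*Rtel1*). *Rtel1*, *Ctc1* and *Terf2ip*, with gaps of -2.69, -1.34 and 0.32, were in the class from 3377 to 4825 bases, whose median was -0.02. The part of GC content or length in these values was not tested.

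**Figure D3:**
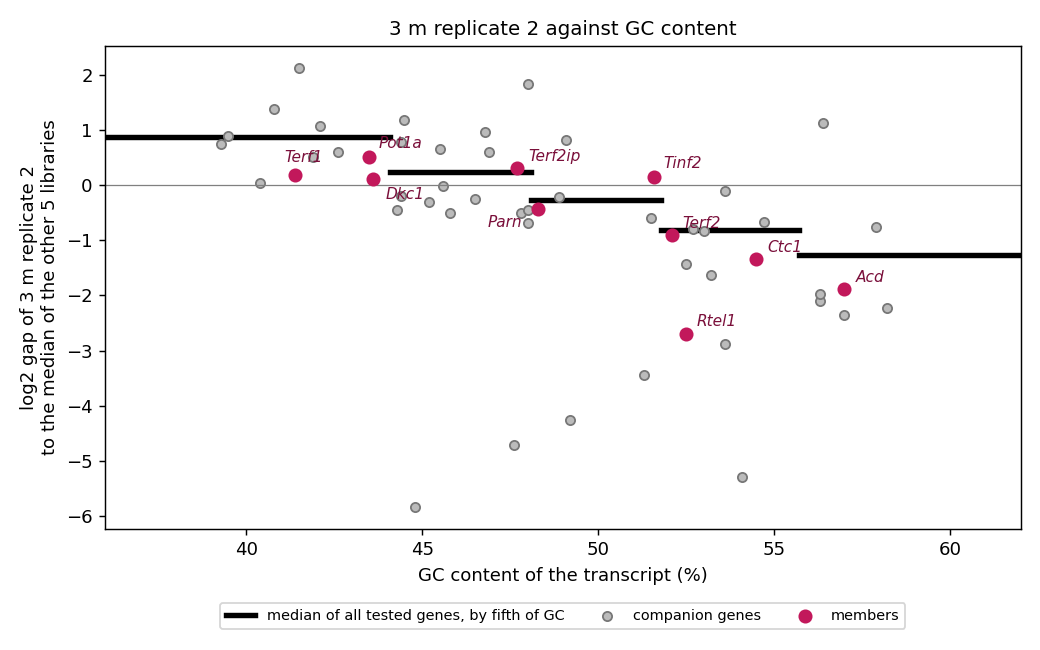
Log2 gap of replicate 2 at 3 m to the median of the other 5 libraries, against the GC content of the transcript in percent, for the 10 members (red, named) and the tested companion genes (grey). Black bars are medians of all tested genes in 5 equal classes of GC content, drawn between 36% and 62% and falling from 0.87 to -1.27, and the named genes scatter around them, with *Rtel1* farthest below.

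Levels of different genes were compared in FPKM, the deposited count divided by gene length and library total, which puts genes of unlike length on 1 scale. *Terf2ip* had the highest median over the 6 libraries, 7.04 FPKM, followed by *Acd* at 6.00, *Terf2* at 5.99, *Parn* at 4.603 and *Tinf2* at 4.38 FPKM. *Dkc1* and *Ctc1* followed at 3.23 and 3.18 FPKM, then *Rtel1* at 1.92, *Terf1* at 1.48 and *Pot1a* at 1.11 FPKM. Within shelterin the median levels per length of the RAP1 and TPP1 genes were thus several times those of the TRF1 and POT1a genes. This did not hold for *Acd* in replicate 2 at 3 m, where it was at 1.52 FPKM beside *Terf1* at 1.53 and *Pot1a* at 1.37 FPKM. Neighbours in this order were not all apart. *Tinf2* was above *Dkc1* and *Terf1* above *Pot1a* in 6 of 6 libraries, while *Acd* was above *Terf2* in 2 of 6, and *Dkc1* above *Ctc1* and *Rtel1* above *Terf1* in 3 of 6. Every neighbouring pair had ranges that overlapped over the 6 libraries. In replicate 2 at 3 m *Acd* stood 7th and *Rtel1* last of the 10. FPKM was computed on the whole exonic length, so the levels of *Acd* and *Tinf2* depend on how counts in their overlaps were assigned.

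**Figure D4:**
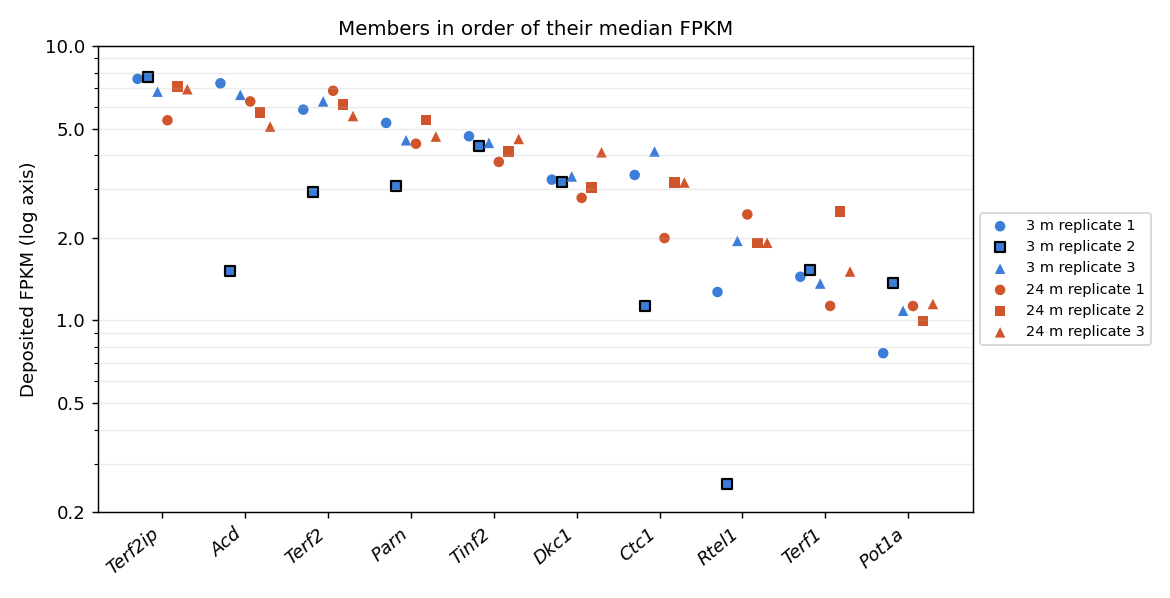
Deposited FPKM of each gene in each library on a log axis, with genes in order of their median from *Terf2ip* at 7.04 to *Pot1a* at 1.11 FPKM and symbols as in the plot of CPM. *Tinf2* and *Dkc1* keep a narrow range, and replicate 2 at 3 m (outlined) lies far below the rest for *Acd* and *Rtel1*.

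A companion list of 46 other telomere genes gave the setting, of which 44 were tested. None of the 44 was called in either direction by edgeR, where 0% of all tested genes were called (smallest adjusted p = 0.828). At an unadjusted p under 0.05 edgeR had 0 of them, beside 5.86% of all tested genes. DESeq2 tested all 46 and called 0, where it called 1.63% of its genes higher and 0.16% lower. It had 0 at an unadjusted p under 0.05, beside 10.2% of its genes. In limma-voom 0 of the 44 were called, as were 0% of all, and 1 was at an unadjusted p under 0.05, beside 6.53% of all. By edgeR the 44 were fitted above 0 in 22 and below 0 in 22, with a median log2 fold change of 0.01. With replicate 2 at 3 m left out, 45 were tested and none was called, where 0.506% of all tested genes were called higher and 0.0185% lower. Of the 45, 27 were above 0 and 18 below, and the median was 0.09. The smallest adjusted p from edgeR was then 0.445, that of *Nhp2*, the 1 gene of the 45 at an unadjusted p under 0.05, beside 10.4% of all. The ages parted in 3 of the 44 with 24 m above, beside 9.74% of all tested genes, and in 0 with 24 m below, beside 5.41%. The 3 were *Stn1*, the CST partner of *Ctc1*, *Prim2*, the large subunit of primase, and *Nhp2*, a core protein of the telomerase ribonucleoprotein. *Stn1* and *Prim2* fall outside the rule for naming genes and are given because of their values.

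Among telomerase genes, *Tert*, the catalytic subunit, was detected in every library, at 5.16, 4.95 and 8.35 CPM in young and 4.42, 5.30 and 8.12 CPM in aged cells. The ages covered nearly the same range, with a log2 fold change of -0.05 and an SE of 0.48, or -0.18 (SE 0.41) without replicate 2 at 3 m. *Nhp2* was at 9.36, 0.249 and 10.98 CPM at 3 m and at 13.6, 19.4 and 14.8 CPM at 24 m. Its log2 fold change of 1.21 (SE 0.94) was the largest of the companion genes in all libraries, and without replicate 2 at 3 m, where its count was 7 while replicates 1 and 3 had 272 and 347, it was 0.65 (SE 0.27) (edgeR's adjusted p = 0.445). *Ruvbl1*, an ATPase that helps assemble telomerase, had a log2 fold change of 0.52 (SE 0.44), and of 0.20 (SE 0.29) without that library. Of the 10 tested genes of this group, 7 were fitted above 0 and 3 below. The telomerase RNA *Terc* was not analysed here.

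Among the partners of shelterin, *Pot1b*, the other mouse *POT1* gene, was at 3.85, 0 and 5.60 CPM at 3 m and at 7.39, 3.89 and 6.81 CPM at 24 m. The 0 in replicate 2 at 3 m allows up to 0.107 CPM, with the limit for a count of 0 set at 3 counts and covering counting error only. Per length, *Pot1a* was above *Pot1b* in 3 of 6 libraries, replicate 2 at 3 m with its 0 for *Pot1b* among them. Reads shared by these paralogs could move counts between them. *Tnks2*, a tankyrase that modifies TRF1 in human cells, was at 130, 304 and 154 CPM in young and 130, 134 and 150 CPM in aged cells, and *Zbtb48*, which binds telomere repeats, at 23.5, 4.88 and 18.4 CPM in young and 26.4, 23.2 and 20.7 CPM in aged cells. Here too replicate 2 at 3 m lay at the edge, high for *Tnks2* and low for *Zbtb48*, and neither gene passed the test (edgeR's adjusted p = 0.831 and 0.858). Their log2 fold changes were -0.50 and 0.58 with that library and -0.04 and 0.16 without it, and that of *Pot1b* was 0.93 (SE 1.27) with it and 0.35 (SE 0.43) without.

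In the CST and polymerase alpha-primase group, *Ten1*, the small subunit of CST, had the smallest unadjusted p of the companion genes (0.0864, adjusted p = 0.828 from edgeR). It was at 20.8, 28.4 and 12.5 CPM at 3 m and at 13.0, 13.3 and 11.8 CPM at 24 m, so that the ages overlapped through replicate 3 at 3 m. *Pola1*, the catalytic subunit of the polymerase, was at 5.06, 24.9 and 5.03 CPM in young and 7.09, 5.60 and 6.19 CPM in aged cells. Its log2 fold change turned from -0.89 to 0.32 without replicate 2 at 3 m. *Stn1* was at 8.64, 6.27 and 10.2 CPM in young and 11.4, 10.99 and 12.4 CPM in aged cells, a log2 fold change of 0.47 (SE 0.35). The 3 subunits of CST thus had fitted changes of -0.11 (*Ctc1*), 0.47 (*Stn1*) and -0.69 (*Ten1*), none of which passed the test. These were -0.47, 0.31 and -0.38 without replicate 2 at 3 m, and again none passed.

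In the remaining groups no gene passed the test either. *Zcchc8* and *Tgs1*, which act on the end and the cap of telomerase RNA in human cells, had log2 fold changes of 0.19 and -0.28. *Wrn*, a helicase, and *Rpa3*, a subunit of the protein that coats single strands, had -0.28 and -0.32. The damage kinase gene *Atr* and *Trp53bp1*, which encodes a break-repair factor held off by TRF2, had -0.76 and 0.38. The chromatin remodeler *Atrx* was at -0.20 and its partner *Daxx* at 0.55. Without replicate 2 at 3 m these became 0.04, -0.11, 0.25, -0.35, -0.14, 0.23, 0.26 and 0.14 in the same order, all with an adjusted p of at least 0.721 in edgeR's test.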

How the data were processed

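RNA-seq of sorted AT2 cells at 3 m and 24 m was analysed, 3 pooled replicates per age, grouped by sample title. The authors deposited a table with raw counts and FPKM per gene; HISAT2, featureCounts and DESeq2 on the GRCm39 build are listed in the submitters' processing notes, and the annotation release, strand setting and treatment of multi-mapping reads are not given in the sources used here. The gene length implied by deposited FPKM, count and library total was whole within 0.01 for 100% of values with at least 20 counts, and FPKM was used only to compare genes. Counts were analysed in R 4.3.3 with edgeR 4.0.16 (TMM, filterByExpr, quasi-likelihood test), and DESeq2 1.42.0 and limma 3.58.1 (voom) as alternatives. These tools were also run on simulated data in which no library stood apart, so that run does not show how they behave with such a library. A standard error is the log2 fold change over the root of F, and 95% intervals use it with the fit's degrees of freedom. Depth was 28827930 to 32394985 counts; Poisson intervals cover counting error only. GC content, transcript length and overlaps came from GENCODE vM21 (GRCm38), by gene identifier, and no coordinates were carried between builds. GC content and length used the longest coding transcript where there was one, and overlaps the merged exons of all transcripts. Other alternatives were RLE or no scaling factors, other filters, no fold limit, replicate number as a block, and each library left out. All members were named, with *Tert*, *Pot1b* and the 2 companion genes of smallest unadjusted p in each of 7 role groups. Members and lists were chosen with earlier results of these data known.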

Additional observations from a re-analysis of the deposited data

How the results depend on the processing

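No setting called any of the 10 members or of the companion genes. Over all genes, DESeq2 called 286 higher and 28 lower and edgeR with no filter on low counts 179 and 28, where the reported test called 0 and 0, and leaving out 1 library gave 0 to 82 higher and 0 to 3 lower, most without replicate 2 at 3 m. Members whose ages parted numbered 0 to 3 with 1 library left out, 2 without replicate 2 at 3 m and 3 each without replicate 3 at 3 m or at 24 m, and companion genes 3 to 12, most without replicate 1 at 3 m. Over all tested genes the share was then 19.8% to 34.6%, with 26.2%, 34.6% and 26.6% in the first 3 settings named and 28.2% in the last. RLE factors, library totals and FPKM left both counts as reported. The sign of some small changes turned. With library totals alone, *Pot1a* was at 0.023, *Dkc1* at 0.021 and *Tert* at 0.014 on the log2 scale, where the median of all genes moved from 0.05 to 0.13, and *Ctc1* was at 0.026 in limma-voom. With 1 library left out, *Terf1* ran from -0.22 to 0.39, *Terf2* from -0.020 to 0.39, *Pot1a* from -0.24 to 0.21, *Acd* from -0.34 to 0.48, *Dkc1* from -0.24 to 0.046, *Parn* from -0.073 to 0.29, *Ctc1* from -0.47 to 0.18, *Tert* from -0.34 to 0.24, *Pola1* from -1.24 to 0.32, *Wrn* from -0.51 to 0.25 and *Atrx* from -0.44 to 0.26, while *Rtel1* stayed above 0, from 0.34 to 1.33, and *Terf2ip* and *Tinf2* below it, from -0.37 to -0.15 and from -0.26 to -0.13. The cause was not tested.

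Same-numbered libraries of the 2 ages did not deviate together (correlation across genes of 0.01, -0.04 and -0.08), so the numbers were not taken as pairs. With the replicate block edgeR called 0 genes higher and 0 lower, 480 were at an unadjusted p under 0.05 against 873, and *Ctc1* was at 0.0145. With 3 libraries per age and 1 of them apart, the intervals of *Rtel1*, *Acd*, *Ctc1* and *Terf1* reach beyond a 2-fold difference, those of *Ctc1* and *Terf1* also without replicate 2 at 3 m. Over all libraries the change in these genes is thus not bounded to within 2-fold. No detection limit was computed for any of the members.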
